A study of Mus musculus with 2 samples.

Results

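Regulatory T cells, the CD4 lineage that carries the transcription factor Foxp3, were examined in single-cell RNA sequencing of mouse tumours. A droplet was taken as a member if it held at least 300 detected genes, at least 800 unique molecular identifiers (UMIs, counts of distinct RNA molecules) and at most 10% mitochondrial UMIs. It also had to hold at least 1 UMI of Cd3e or Cd3g, subunits of the T cell receptor complex, and at least 1 UMI of Foxp3. Droplets with any UMI of Csf1r or Csf3r, with more than 1 summed UMI of C1qa, C1qb and C1qc, or with 3 or more UMIs of Krt18 were left out, since these genes mark macrophages, neutrophils and epithelial cells. The rule selected 55 cells, 41 of the 8099 deposited control cells and 14 of the 10037 deposited motolimod cells. Because Foxp3 itself selected the members, its level in them describes the rule and is no result.

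The study compared tumours labelled control, with no agent named, with tumours labelled as treated with motolimod, a synthetic compound that activates TLR8, a receptor for RNA in endosomes. Each group had 5 mice and 1 library, and the labels do not say whether the mice were pooled, which tumour model was used, at what dose or time, or of which strain and age the mice were. Tumours were digested, and immune cells were enriched on beads against CD45 before droplet capture. With 1 library per group no difference below has a replicate check and none has a test: all intervals are 95% intervals that cover counting error only.

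Regulatory T cells restrain other T cells. They take up interleukin-2 through the high-affinity receptor chain CD25 (Il2ra), strip costimulatory ligands from antigen-presenting cells through CTLA-4, and release inhibitory cytokines such as interleukin-10 and interleukin-35. In tumours they often form an activated population that carries the chemokine receptor CCR8 and receptors of the TNF receptor family such as OX40 (Tnfrsf4), GITR (Tnfrsf18) and 4-1BB (Tnfrsf9).

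Most droplets with Foxp3 and Cd3 also held RNA of another lineage and were removed by the rule. Of 7484 control and 9314 motolimod cells past the depth and mitochondrial filter, 204 and 59 held a Foxp3 UMI, and 163 and 35 of these also held Cd3e or Cd3g. The other-lineage genes removed 122 of the 163 in the control library (74.8%, exact Clopper-Pearson interval 67.5 to 81.3%) and 21 of the 35 in the motolimod library (60%, 42.1 to 76.1%). In the control library 108 of the 122 held Csf1r and 111 held more than 1 C1q UMI. The same step removed 67.7% of Foxp3-negative Cd3 cells in the control library (516 of 762) and 53.9% in the motolimod library (405 of 752). The removed droplets were deeper, with a median of 20725 UMIs in the control library against 5522 in the members. Whether they are pairs of cells or T cells with ambient macrophage RNA was not tested.

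Members made up 14.3% of Cd3 cells free of other-lineage genes in the control library (41 of 287, interval 10.5 to 18.9%) and 3.88% in the motolimod library (14 of 361, 2.14 to 6.42%). The motolimod share was 0.271 times the control share (0.137 to 0.508). With the other-lineage droplets kept, the shares were 17.6% (163 of 925) and 4.45% (35 of 787). When every cell was thinned to 1000 UMIs, so that each had the same chance of showing Foxp3, the shares were 3.40% (8 of 235) and 1.92% (6 of 313), and their intervals overlapped. Foxp3 UMIs were rare in cells that should lack the gene: 26 of 4343 control Csf1r-positive cells without Cd3 (0.599%, median 15077 UMIs) and 7 of 1381 Csf3r-positive cells (0.507%, median 11746 UMIs) held one. In the motolimod library these shares were 0.478% (20 of 4181, median 7084 UMIs) and 0.223% (6 of 2690, median 3383 UMIs). The unthinned shares of Foxp3-positive T cells stood above this background in both libraries, with members shallower than the Csf1r-positive cells.

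Median depth was similar in members and in all the cells they are compared with. The median was 5522 UMIs in control members, 5152 in motolimod members, and 5496 and 4965 in the Foxp3-negative Cd3e-positive cells of each library. Over the whole libraries the medians were 12868 and 3369 UMIs. Of all barcodes, 113 appeared in both libraries, none of them a member, and 4 control and 6 motolimod Foxp3-negative cells were among them.

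Foxp3 (chromosome X, 7573644 to 7595245, plus strand, mm10) ranged from 1 to 10 UMIs per control member and from 1 to 7 per motolimod member. At the edge of the rule, 11 control and 5 motolimod members held a single Foxp3 UMI. In those 11 control cells, summed Il2ra stood at 196 counts per 1000000 UMIs (CPM) and Ctla4 at 338 CPM, between the 77.0 and 187 CPM of Cd3e-positive cells with no Foxp3 UMI and the 323 and 1058 CPM of the 14 members with 4 or more. Ikzf2 was also higher in control members with 4 or more Foxp3 UMIs (616 CPM) than in those with 1 (481 CPM). Other genes were lower with 4 or more than with 1: Tnfrsf18 (919 and 1211 CPM) and Tnfrsf4 (1648 and 1887 CPM). The same held for Tnfrsf9 (811 and 1122 CPM), Ccr8 (241 and 392 CPM) and Icos (359 and 534 CPM). In the 16 control members with 2 or 3 Foxp3 UMIs, Tnfrsf4 (2197 CPM), Ccr8 (522 CPM) and Icos (561 CPM) stood above both ends. Tnfrsf18 (950 CPM) lay between the ends there and Tnfrsf9 (686 CPM) below both. Median depth was 4991 UMIs with 1 Foxp3 UMI, 4974 with 2 or 3 and 11127 with 4 or more. In the motolimod library Il2ra was at 117 CPM, from 3 UMIs, with 1 Foxp3 UMI and at 350 CPM with 4 or more. Ctla4 did not rise there (1331 and 793 CPM).

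**Figure D1:**
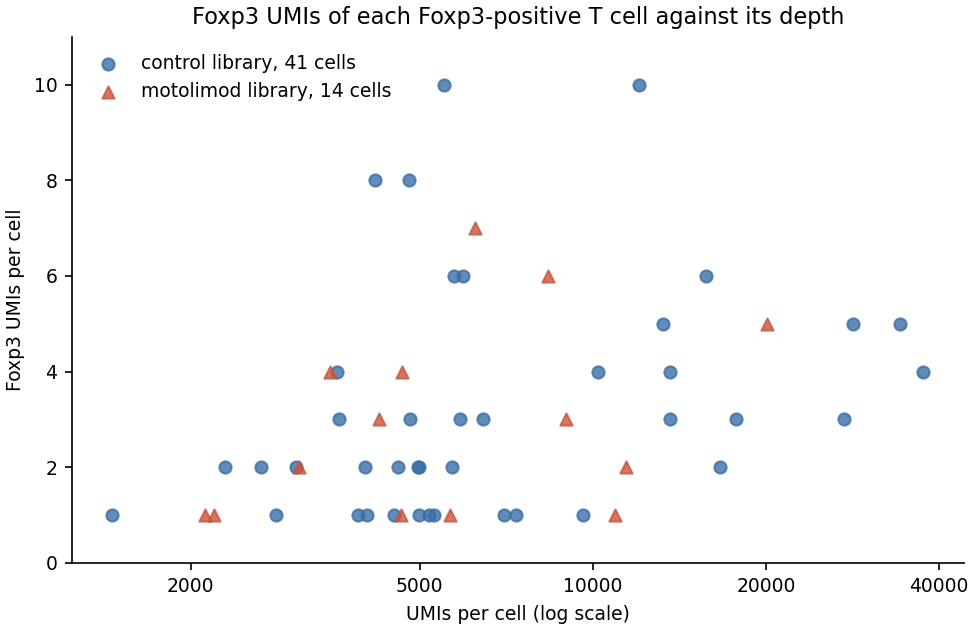
Foxp3 UMIs of each of the 41 control (circles) and 14 motolimod (triangles) members against the UMIs of that cell on a log scale. Members with 1 Foxp3 UMI occur from the shallowest cells, at 1461 and 2120 UMIs, up to 9617 and 10943 UMIs, and the cells with 8 or 10 Foxp3 UMIs are not the deepest.

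The label held against the markers. Ctla4 (chromosome 1, 60887000 to 60915832, plus strand) was detected in 40 of 41 control and 11 of 14 motolimod members, and Il2ra (chromosome 2, 11642807 to 11693193, plus strand) in 26 and 10. Only 1 control and 1 motolimod member held neither. Among Foxp3-negative cells Ctla4 was detected in 47.1% and 48.9% and Il2ra in 27.4% and 19.5%. Both together were found in 63.4% and 57.1% of members and in 14.8% and 8.98% of Foxp3-negative cells. Cd4 was detected in 27 of 41 (65.9%) and 9 of 14 (64.3%) members, against 2.24% and 7.74% of Foxp3-negative cells. Cd8a was at 0 UMIs in the members of both libraries, which allows up to 3 UMIs, and Cd8b1 was detected in 5 control members and in 0 motolimod members.

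The Foxp3-negative Cd3e-positive cells used for comparison (223 control and 323 motolimod) were mostly not CD4 cells. A Cd8a or Cd8b1 UMI was found in 57.4% of them in the control library (128 cells) and 61.9% in the motolimod library (200 cells). Trdc, the constant region of the delta chain, was found without Cd8 in 23.8% and 19.8%, and Cd4 without Cd8 in 2.24% (5 cells) and 7.43% (24 cells). The remaining 16.6% and 10.8% showed none of these. These kinds differed in median depth, at 10208.5 UMIs in Cd8, 4575 in Cd4, 2651 in Trdc and 2580 in the remaining control cells. In the motolimod library the medians were 6048, 5407.5, 3524 and 3406. UMIs were summed over cells, so deeper cells weigh more. The Cd8 cells held 1649806 of the 1947356 comparison UMIs in the control library and 1528311 of 2069006 in the motolimod library. The Trdc cells held 148071 and 258969. Each ratio below therefore sets regulatory T cells against a mixture of CD8, gamma-delta and other T cells, weighted towards CD8 cells, and not against CD4 cells alone.

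Among genes with at least 50 CPM in the higher group and 10 UMIs over both, 220 of 3190 (6.9%) were called at least 2-fold higher in control members, with the interval above 1, and 134 (4.2%) at least 2-fold lower. In the motolimod library 330 of 3584 genes (9.21%) were called higher and 166 (4.63%) lower. The median gene stood 0.11 (log2) higher in control members and 0.19 higher in motolimod members. With median-of-ratios scaling, which removes that shift, the motolimod split became 245 higher and 245 lower. Of the 220 genes called higher in the control library, 106 were also called higher in the motolimod library, which is 48.2% of the control and 32.1% of the motolimod calls. Of the 134 lower genes, 76 were shared (56.7% and 45.8%). Only 168 of the 220 and 122 of the 134 passed the minimum counts in the motolimod library. Of these, 155 and 112 lay on the same side of 1 there, and 4 and 2 were called in the opposite direction.

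Genes that define regulatory T cells stood above the other T cells in both libraries. Of 14 identity genes compared in the control library, 10 were higher and 0 lower, with a median log2 ratio of 1.94, and in the motolimod library 9 of 12 were higher and 0 lower, with a median of 2.23. Il2ra was at 277 CPM in control members and 77.0 CPM in Foxp3-negative cells, a ratio of 3.59 (2.77 to 4.64), and at 281 against 47.4 CPM in the motolimod library, a ratio of 5.93 (3.72 to 9.15). Ctla4 was at 907 against 187 CPM in the control library (4.85-fold, 4.17 to 5.64) and at 1092 against 228 CPM in the motolimod library (4.79-fold, 3.84 to 5.93). Per member cell Ctla4 ran from 0 to 39 UMIs in the control library, with a median of 6, and from 0 to 17 with a median of 7 in the motolimod library. Ikzf2, which encodes the transcription factor Helios, was at 567 against 109 CPM (5.18-fold) and at 759 against 76.4 CPM (9.94-fold). The receptor gene Tnfrsf4 was at 1869 against 382 CPM (4.89-fold, 4.41 to 5.43) and at 1799 against 122 CPM (14.8-fold, 12.1 to 18.0). Its level in members was nearly equal in both libraries, and the Foxp3-negative cells of the motolimod library had less of it.

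Izumo1r, which encodes folate receptor 4, was at 229 CPM in control members against 14.9 CPM (15.4-fold, 10.0 to 24.3) and at 385 against 5.80 CPM in the motolimod library (66.3-fold, 33.8 to 140). Lrrc32 encodes GARP, which holds latent TGF-beta on the cell surface. It was at 100 against 2.57 CPM in the control library (39.0-fold, 15.3 to 127), and 6 UMIs in motolimod members stood against 0 in 323 Foxp3-negative cells. Tnfrsf18, chosen here after its values were seen, was at 973 against 350 CPM and at 1227 against 177 CPM. Of the identity genes compared, Il2rb and Entpd1 were called in neither library. Nrp1, often used as a mark of thymus-derived regulatory T cells, was under the minimum of 50 CPM and was not compared. It had 7 UMIs in control members and 0 in motolimod members, and stood at 33.9 and 38.2 CPM in Foxp3-negative cells.

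**Figure D2:**
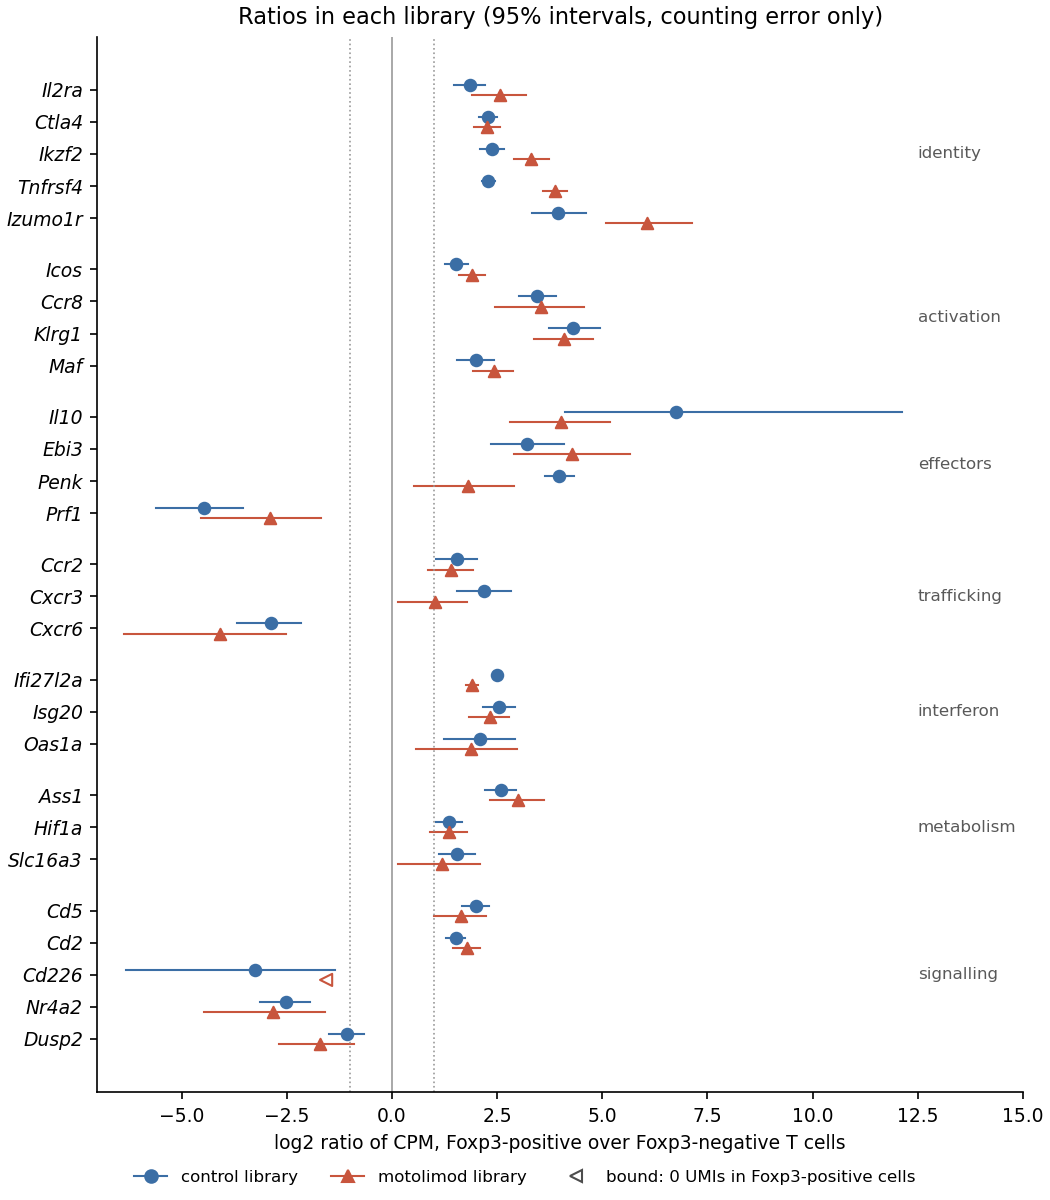
Log2 ratios of summed CPM, Foxp3-positive over Foxp3-negative T cells, in the control (circles) and motolimod (triangles) library with 95% intervals for counting error, grouped by role. Dotted lines mark 2-fold, the open symbol is an upper bound for a gene with 0 UMIs in members, and all identity and activation genes shown lie to the right of 0 while Prf1, Cxcr6, Cd226, Nr4a2 and Dusp2 lie to the left.

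Genes of the activated state described in tumours were higher in part. Of 19 such genes compared in the control library, 8 were higher and 0 lower (median log2 ratio 0.88), and in the motolimod library 8 of 18 were higher and 2, Pdcd1 and Tox, were lower (median 0.96). Ccr8 (chromosome 9, 120092114 to 120094906, plus strand) was at 359 against 32.9 CPM in the control library (10.9-fold, 8.05 to 14.9) and at 135 against 11.6 CPM in the motolimod library (11.7-fold, 5.45 to 23.8). It was detected in 28 of 41 (68.3%) control and 7 of 14 (50%) motolimod members, against 12.6% and 4.95% of Foxp3-negative cells and 0 of 53 and 0 of 64 Trdc cells. After thinning to 1000 UMIs these shares were 29.3% and 14.3% of members against 2.24% and 0.623%. Klrg1, a receptor of terminally differentiated lymphocytes, was at 306 against 15.4 CPM (19.9-fold) and at 343 against 20.3 CPM (16.9-fold). Icos, a costimulatory receptor of the CD28 family, was at 453 against 157 CPM (2.90-fold) and at 1102 against 292 CPM (3.77-fold). Maf, a transcription factor tied to interleukin-10 production, was at 206 against 51.9 CPM (3.96-fold) and at 499 against 93.3 CPM (5.35-fold). Tnfrsf9 was detected in 90.2% and 100% of members. Its ratio was 1.31 in the control library, where Foxp3-negative cells held 623 CPM, and 3.94 in the motolimod library, where they held 272 CPM.

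Against the few Foxp3-negative cells with Cd4 and no Cd8, hardly any named gene kept a 2-fold ratio with its interval above 1 in the control library. Of 39 named genes called higher there, 34 gave a value against the 5 Cd4 cells, and 1, Penk, was at least 2-fold higher with its interval above 1 (those cells held 0 Penk UMIs, so its ratio is a lower bound). The intervals of 26 held 1. The 5 cells held 28998 UMIs in all, so an interval that holds 1 can also hold ratios above 2. Klrg1 (2.22, 0.843 to 8.27) and Lrrc32 (2.90, 0.491 to 118) were of this kind, whereas the interval of Ctla4 (0.678 to 1.57) stayed below 2. In the motolimod library 22 of 35 were at least 2-fold higher against the 24 Cd4 cells. The 5 control cells of that kind held 379 CPM Ccr8, 621 CPM Ikzf2 and 897 CPM Ctla4, close to the members, and 1276 CPM Tnfrsf4. The ratios there were 1.61 for Il2ra (0.667 to 5.05), 1.01 for Ctla4, 1.66 for Izumo1r (0.627 to 6.24), 1.46 for Tnfrsf4 (1.05 to 2.10), 0.945 for Ccr8, 0.913 for Ikzf2 and 0.497 for Maf. Whether these are regulatory T cells whose Foxp3 was missed was not tested. The 24 such cells of the motolimod library differed from the members: they held 13.7 CPM Ccr8, 27.4 CPM Ikzf2, 493 CPM Ctla4 and 329 CPM Tnfrsf4. Trdc cells held none of Tnfrsf4 in either library, and little Ctla4 (40.5 and 34.8 CPM), but they held Il2ra at 230 CPM in the control library, close to the 277 CPM of members. Icos stood at 635 CPM in Trdc cells and 656 CPM in cells with none of these genes of the control library, against 453 CPM in members, and its ratio against control cells without Cd8 or Trdc was 0.788. Maf gave 0.750 there.

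**Figure D3:**
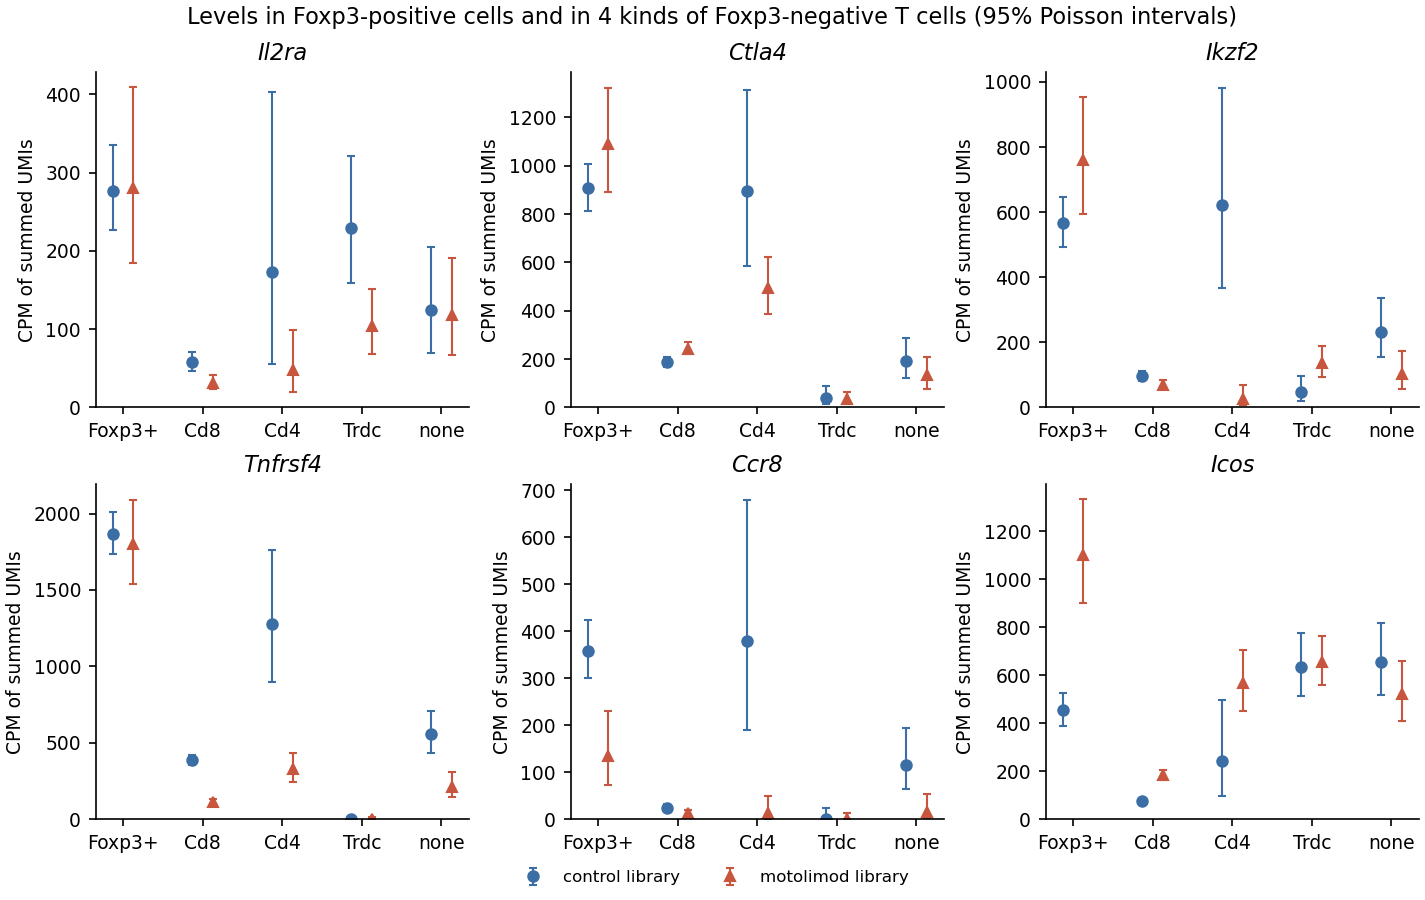
CPM of summed UMIs for 6 genes in members (Foxp3+) and in Foxp3-negative Cd3e-positive cells with Cd8a or Cd8b1 (Cd8), with Cd4 and no Cd8 (Cd4), with Trdc and no Cd8 (Trdc) or with none of these, in both libraries with 95% Poisson intervals. The control Cd4 point rests on 5 cells, and its interval overlaps that of members for all 6 genes. In the motolimod library the Cd4 cells lie below the members for Il2ra, Ctla4, Ikzf2, Tnfrsf4, Ccr8 and Icos.

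Some genes of suppression were higher in members and some lower. Of 14 suppressive effector genes compared in each library, 4 were higher in both (Il10, Penk, Areg and Ebi3) and 2 lower in both (Prf1 and Gzma), with median log2 ratios of 0.16 and 0.55. Il10 was detected in 8 of 41 control members (19.5%) and 1 of 223 Foxp3-negative cells, with 21 UMIs against 1 (108-fold, interval 17.3 to 4458). In the motolimod library it was detected in 6 of 14 members (42.9%) and 5 of 323 Foxp3-negative cells, at 125 against 7.73 CPM (16.1-fold, 6.97 to 36.4). Il10 ratios to the Cd4 cells without Cd8 were 1.61 (0.258 to 66.4) in the control and 18.2 (2.70 to 779) in the motolimod library. Ebi3, a subunit of interleukin-35 and interleukin-27, was at 89.6 against 9.76 CPM (9.19-fold) and at 104 against 5.32 CPM (19.6-fold). Areg, which encodes the tissue-repair growth factor amphiregulin, was at 770 against 201 CPM (3.83-fold) and at 1238 against 193 CPM (6.40-fold). Penk, which encodes the opioid precursor proenkephalin, was at 749 against 47.8 CPM in the control library (15.7-fold, 14 of 41 members), and its 8 motolimod UMIs came from 1 cell. Gzmb, which encodes a granule protease, was detected in 24 of 41 and 12 of 14 members and was called in neither library, while Prf1, which encodes the pore-forming protein perforin, was at 23.7 against 524 CPM (0.0453-fold) and at 52.0 against 390 CPM (0.133-fold). Against cells without Cd8 or Trdc the Prf1 ratios were 3.55 (0.491 to 155) and 1.83 (0.471 to 6.35), and against the 24 motolimod Cd4 cells 7.59 (0.850 to 359), so that each interval held 1. Gzma was at 1.83-fold in the motolimod library with other-lineage droplets kept. Tgfb1 and Lgals1 differed by less than 2-fold in both.

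Most genes of effector T cells were lower in members than in the Foxp3-negative cells, a mixture weighted towards CD8 cells. Of 16 effector T cell genes compared in the control library 0 were higher and 15 lower (median log2 ratio -3.62), and in the motolimod library 0 were higher and 11 of 15 lower (median -2.08). Klrd1, an NK receptor chain, was at 0 UMIs in control members against 548 CPM, and at 41.6 against 717 CPM in the motolimod library, where 1 cell held all 4 UMIs. Ifng, chosen after its values were seen, was at 10.5 against 338 CPM in the control library and at 0 UMIs against 527 CPM in the motolimod library. Fasl was at 2.64 against 85.8 CPM and at 0 UMIs against 105 CPM. Xcl1 was at 2.64 against 143 CPM in the control library (0.0184-fold) and was not called in the motolimod library (0.812-fold, all 10 UMIs from 1 member). The granzyme genes Gzmd, Gzme and Gzmf, near-identical neighbours among which UMIs may be misassigned, were at 0 UMIs in members of both libraries against 708, 756 and 1221 CPM in the control library. Gzmc was at 5.27 against 948 CPM and at 20.8 against 178 CPM. Nrgn and Serpinb9b were lower in both libraries too, with 3 and 0 UMIs in control members and 0 and 0 in motolimod members.

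Some genes that direct migration were higher in members and some lower. Over all genes compared, 6.9% and 9.21% were called higher in the control and motolimod libraries, and 4.2% and 4.63% lower. Of 13 homing and residency genes compared, 3 were higher and 1 lower in the control library (median log2 ratio 0.24), and 4 were higher and 3 lower in the motolimod library (median -0.37). Ccr2, the receptor for monocyte-attracting chemokines, was at 150 against 51.9 CPM (2.90-fold) and at 364 against 137 CPM (2.66-fold). Cxcr3, the receptor for interferon-induced chemokines and, in a splice form of the human gene, for platelet factor 4, was at 108 against 23.6 CPM in the control library (4.58-fold, 2.93 to 7.13) and at 156 against 76.8 CPM in the motolimod library (2.03-fold, 1.11 to 3.45). Against the Cd4 cells without Cd8 the Cxcr3 ratio was 0.348 (0.167 to 0.815) in the control library and 0.690 (0.348 to 1.31) in the motolimod library. Against motolimod cells without Cd8 or Trdc it was 0.879 (0.458 to 1.59). Ccr2 was at 0.802 times (0.502 to 1.31) the level of control cells without Cd8 or Trdc. Against the Cd4 cells without Cd8 the Ccr2 ratio was 4.36 (0.751 to 175) in the control library and 2.80 (1.56 to 5.18) in the motolimod library. Cxcr6, the receptor of tissue-resident T cells, was at 42.2 against 308 CPM (0.137-fold) and at 31.2 against 528 CPM (0.0591-fold). It ranged from 236 CPM in Cd8 cells to 1027 CPM in Trdc cells of the control library, but stood at 34.5 CPM in the 5 control Cd4 cells, where the ratio was 1.22 (0.190 to 51.3). Against the 24 motolimod Cd4 cells the Cxcr6 ratio was 0.0624 (0.0126 to 0.190).

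Some genes listed for naive and central memory cells were higher in members. Of the 14 listed, 5 could be compared in each library. Of these 3 were higher, with 0 lower in the control and 1 lower in the motolimod library (median log2 ratios 1.16 and 1.11). Tcf7, also on the list, had 0 UMIs in members with Ccr8 and 1 UMI in members without it, in each library. Satb1, a chromatin organiser needed for regulatory T cell development, stood at 65.9 against 26.2 CPM (2.52-fold) and at 187 against 73.5 CPM (2.55-fold), though at 0.976 times the level of the 24 motolimod Cd4 cells. Ccr7 was at 214 against 197 CPM in the control library, and its higher motolimod ratio (2.15) rested on 12 UMIs, 66.7% of them in 1 cell. It was 0.907 without the deepest member, 0.664 without cells holding Mki67 or Top2a, and 0.879 against cells without Cd8 or Trdc.

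A few lineage and costimulation genes were higher in members and a few lower. Of 13 T cell lineage genes compared in the control library 3 were higher and 2 lower (median log2 ratio -0.60), and of 14 in the motolimod library 3 were higher and 4 lower (median -0.35). Cd4 was at 140 against 5.14 CPM (27.2-fold) and at 208 against 33.3 CPM (6.24-fold). Against cells chosen for Cd4 it was at 0.405 and 0.467 times, and against motolimod cells without Cd8 or Trdc at 0.901 times. Cd5, an inhibitory co-receptor of the T cell receptor, was at 393 against 98.6 CPM (3.98-fold) and at 281 against 89.9 CPM (3.12-fold). Its ratios to the Cd4 cells without Cd8 were 1.14 (0.602 to 2.42) and 1.24 (0.719 to 2.13). Of the TNF receptor and CD28 family list, 1 of 4 genes was higher and 1 lower in the control library (median log2 ratio 0.52), and 2 of 6 were higher and 1 lower in the motolimod library (median 0.91). Cd2, an adhesion receptor, was at 662 against 232 CPM (2.86-fold) and at 998 against 289 CPM (3.45-fold). Cd4 cells without Cd8 gave Cd2 ratios of 1.01 (0.633 to 1.71) in the control and 2.39 (1.72 to 3.35) in the motolimod library. Cd226, the activating receptor that competes with TIGIT for the same ligands, was at 5.27 against 50.3 CPM in the control library (0.105-fold, 0.0125 to 0.389) and at 0 UMIs against 92.3 CPM in the motolimod library. Tigit itself, chosen after its values were seen, was higher in members, at 414 against 187 CPM and at 728 against 158 CPM.

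Among genes of T cell receptor signalling 0 were higher. In the control library 2 of 16 were lower (median log2 ratio 0.13) and in the motolimod library 3 of 19 (median -0.46). Nr4a2, an early response transcription factor, was at 68.5 against 390 CPM (0.176-fold) and at 52.0 against 370 CPM (0.140-fold), and Dusp2, a phosphatase of MAP kinases, at 142 against 298 CPM (0.477-fold) and at 125 against 410 CPM (0.304-fold). Of the interleukin-2 and STAT5 genes 2 of 13 were higher and 1 lower in the control library (median 0.30), and 3 of 14 were higher and 0 lower in the motolimod library (median 0.51). Bcl2l1, a survival gene, was at 58.0 against 21.1 CPM (2.75-fold) and at 104 against 22.2 CPM (4.68-fold). Cish, a feedback inhibitor of STAT5 signalling, was at 158 against 76.5 CPM in the control library (2.07-fold) and at 93.6 against 111 CPM in the motolimod library (0.842-fold).

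Genes of the type I interferon response were higher in control members: 7 of 11 compared were higher and 0 lower (median log2 ratio 1.26), while in the motolimod library 3 of 13 were higher and 0 lower (median 0.62). Ifi27l2a, an interferon-induced mitochondrial protein gene, was at 4856 against 865 CPM in the control library (5.62-fold) and at 5636 against 1508 CPM in the motolimod library (3.74-fold). Isg20, an RNA exonuclease gene, was at 337 against 58.0 CPM (5.82-fold) and at 489 against 97.6 CPM (5.01-fold). Oas1a, which senses double-stranded RNA, was at 63.3 against 14.9 CPM (4.25-fold) and at 83.2 against 22.7 CPM (3.66-fold). Xaf1 was at 87.0 against 28.8 CPM (3.03-fold) and at 72.8 against 62.8 CPM (1.16-fold). Against the Cd4 cells without Cd8, Ifi27l2a, Isg20 and Oas1a were at 0.796, 0.544 and 0.917 times in the control library. In the motolimod library they were at 1.06 (0.946 to 1.18), 3.97 (2.26 to 7.25) and 0.934 times. Iigp1, an interferon-induced GTPase gene ranked among the 15 highest, was at 92.3 against 7.19 CPM (12.8-fold) and at 104 against 28.0 CPM (3.71-fold).

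Other genes at the top of the control ranking included Cd81, a tetraspanin, at 303 against 9.76 CPM (31.1-fold, 19.0 to 53.5), with 17 UMIs against 3 in the motolimod library (122-fold, 35.3 to 649). Ass1, the enzyme that begins arginine synthesis from citrulline, was detected in 75.6% and 71.4% of members, at 353 against 59.1 CPM (5.98-fold) and at 312 against 39.1 CPM (7.97-fold), though it was at 0.788 times the level of the 5 control Cd4 cells. Timp2, a metalloproteinase inhibitor, was at 89.6 against 9.24 CPM (9.70-fold) and at 135 against 22.2 CPM (6.08-fold). Laptm4b, a lysosomal membrane protein gene, was at 84.4 against 4.62 CPM (18.3-fold) with 68.8% of its member UMIs in 1 cell, and at 104 against 5.32 CPM (19.6-fold) over 42.9% of motolimod members.

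Of the glycolysis and lipid metabolism genes 2 of 15 were higher and 1 lower in the control library (median log2 ratio 0.34), and 4 of 16 were higher and 0 lower in the motolimod library (median 0.78). Hif1a, the hypoxia-induced transcription factor, was at 348 against 136 CPM (2.56-fold) and at 530 against 207 CPM (2.56-fold). For Hif1a, the ratios to the Cd4 cells without Cd8 were 1.44 (0.680 to 3.66) and 1.08 (0.736 to 1.56). Slc16a3, a lactate exporter, was at 198 against 67.8 CPM (2.92-fold) and at 114 against 49.8 CPM (2.30-fold), but at 0.637 times the level of the 5 control Cd4 cells. Of 20 cell cycle genes compared in the control library 0 were higher and 0 lower (median log2 ratio 0.43), and of 18 in the motolimod library 0 were higher and 5 lower (median -0.73). Of 16 heat shock and dissociation genes 0 were higher in either library, and 1 in the control (median -0.07) and 4 in the motolimod library (median -0.11) were lower.

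**Figure D4:**
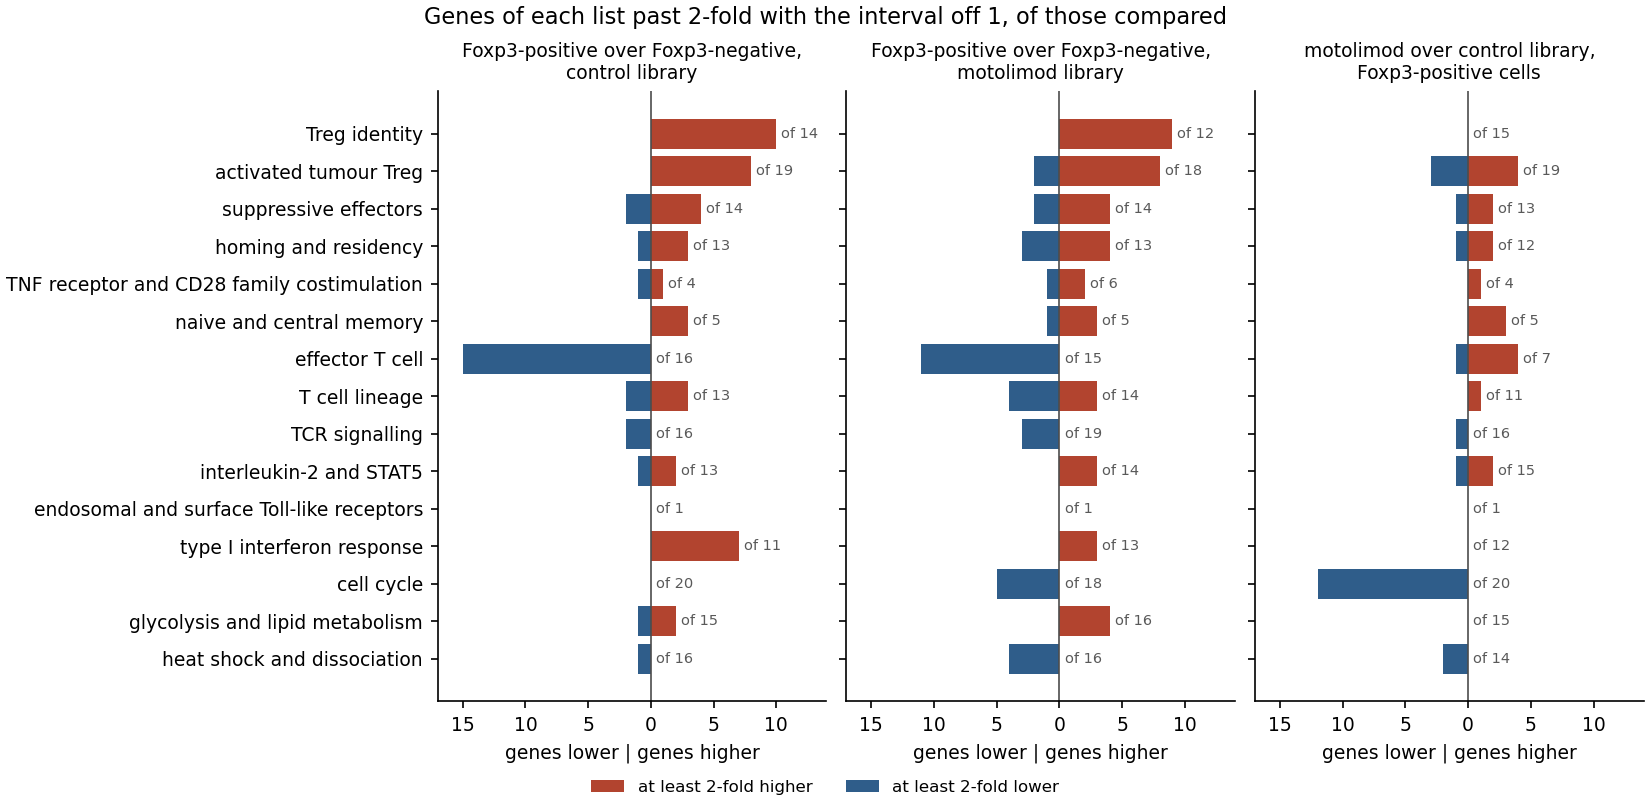
Number of genes of each list called at least 2-fold higher (right) or lower (left), of those compared, for Foxp3-positive over Foxp3-negative cells in each library and for motolimod over control within Foxp3-positive cells. Identity and activation genes lie to the right and effector genes to the left in both libraries, and the cell cycle list has 12 of 20 genes lower in the motolimod members.

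Tlr8, the receptor for the agonist, and Tlr7, a related RNA sensor, were at or near 0. Tlr8 had 0 UMIs in members and in Foxp3-negative cells of both libraries, and Tlr7 had 0 UMIs in control members and 1 in motolimod members, against 2 and 5 UMIs in Foxp3-negative cells. Of 14 listed genes of Toll-like receptors and their pathway, 1 could be compared in each library, Irf7, and it was called in neither (log2 ratios 0.89 and -0.64). Pf4, which encodes platelet factor 4, stood at 2.64 CPM in control members, from 1 UMI, against 91.9 CPM in Foxp3-negative cells, where 1 cell held 73.2% of the UMIs. The ratio was 1.17 with other-lineage droplets kept. It had 22 UMIs in motolimod members, of which 95.5% lay in 1 cell.

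RNA of other lineages remained in the members at low levels, and its part in the results was not tested. Of 10 macrophage markers 7 were detected in control members, at 846 CPM in all against 412 CPM in Foxp3-negative cells, with 43.9% of these UMIs in 1 cell and Adgre1, Mrc1 and Ms4a7 at 0. In the control library 5 of 6 macrophage markers compared were higher and 1 lower (median log2 ratio 1.33), whereas in the motolimod library 0 of 4 were higher and 1 lower (median -0.28). Apoe (2.90-fold in the control library) had 96.2% of its member UMIs in 1 cell, and Lyz2 (4.01-fold) 53.3%. With cells over 0.5% other-lineage marker UMIs left out, they were at 0.583 and 0.837 times. Apoe was at 0.0873 times with at least 2 Foxp3 UMIs. Motolimod members held 7 of 10 macrophage markers, at 530 CPM against 536 CPM, with 68.6% in 1 cell and Adgre1, Mrc1 and Fcgr1 at 0. Of the neutrophil markers 0 of 2 were called in the control (median 0.85), where 6 of 8 were detected at 348 against 185 CPM, with Cxcr2 and Hdc at 0. For motolimod members 3 of 3 were lower (median -2.15), with 5 of 8 detected at 218 against 1106 CPM, and Retnlg, Cxcr2 and G0s2 at 0. Il1b, 1 of the 3, was at 1.04 (0.209 to 3.21) after cells over 0.5% other-lineage marker UMIs were left out. Of 10 dendritic cell markers 3 were detected in both, with Flt3, Xcr1, Itgax, Cd209a, Fscn1, Siglech and Clec9a at 0. They summed to 501 against 1180 CPM in the control and 374 against 1493 CPM in the motolimod library, with 1 of 3 lower (median -0.81) and 3 of 3 lower (median -2.47). Single Foxp3-negative cells held 32.1% and 40.2% of the comparison UMIs. A UMI of these markers was found in 78.0% of control members and 78.5% of Foxp3-negative cells, and in 78.6% and 72.4% for motolimod. After cells over 0.5% other-lineage marker UMIs were left out, motolimod Cst3 was at 1.40 (0.929 to 2.05) and H2-Ab1 at 3.85 (0.960 to 11.4). The 1 B cell marker compared, Ighm, was higher in both (13.8-fold and 5.87-fold, median log2 ratios 3.78 and 2.55), while Cd79a, Ms4a1 and Jchain were at 0 in members and in Foxp3-negative cells. Ighm was detected in 56.1% and 21.4% of members. Of the NK and innate lymphoid markers 0 of 4 were higher in either library, 1 in the control (median 0.61) and 2 in the motolimod library (median -0.83) were lower, and Ncr1, Klrb1c, Klra8 and Klre1 were at 0 in members. Epithelial markers stood at 13.2 CPM in control and 0 CPM in motolimod members and mast cell markers at 2.64 and 41.6 CPM, and 0 genes of either list could be compared.

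Members varied in activation and in cycling. Ccr8 was detected with Tnfrsf9 in 27 of 41 control and 7 of 14 motolimod members, and Tnfrsf4 with Tnfrsf9 in 37 and 13. The 13 control members without Ccr8 were shallower (median 3907 against 6186 UMIs) and held Klrg1 at 657 against 243 CPM. Ctla4 was at 1106 CPM in them and 871 CPM in the 28 with Ccr8. Klrg1 in the motolimod library went the other way, at 141 CPM without and 461 CPM with Ccr8, in 7 cells each. Mki67 or Top2a, genes of dividing cells, was detected in 21 of 41 control members (51.2%, 35.1 to 67.1%) and 3 of 14 motolimod members (21.4%, 4.66 to 50.8%), against 80 of 223 and 84 of 323 Foxp3-negative cells. The 21 control members with Mki67 or Top2a were deeper (median 10229 against 4690 UMIs) and held Tnfrsf18 at 656 against 1857 CPM, Tnfrsf9 at 630 against 1328 CPM and Icos at 344 against 759 CPM.

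Identity genes were called in neither direction between motolimod and control members: of 15 compared, 0 were higher and 0 lower (median log2 ratio 0.27, against 0.11 over all genes). In all, 190 of 3622 genes (5.25%) were called higher in motolimod members and 123 (3.4%) lower, and with median-of-ratios scaling 137 and 162. In Foxp3-negative cells, 67 of 3020 genes (2.22%) were called higher and 52 (1.72%) lower. Il2ra (1.01-fold), Ctla4 (1.20-fold), Ikzf2 (1.34-fold) and Tnfrsf4 (0.963-fold) were each within 2-fold. Of 19 activation genes 4 were higher and 3 lower (median 0.21). Icos was 2.43-fold higher (1.89 to 3.11) and Maf 2.43-fold (1.66 to 3.52), and in Foxp3-negative cells the ratios were 1.87 and 1.80. Ccr8 was lower in motolimod members (0.377-fold, 0.196 to 0.667) and in Foxp3-negative cells, where it was under the minimum of 50 CPM and not compared, it stood at 11.6 CPM in the motolimod and 32.9 CPM in the control library. Whether these differences come with the treatment, the tumour or the library cannot be told apart.

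Cell cycle genes were the list with the most lower genes in motolimod members, 12 of 20 with 0 higher (median log2 ratio -1.49), against 5 of 20 in Foxp3-negative cells (median -0.51). Mki67 was at 31.2 CPM in motolimod and 245 CPM in control members (0.127-fold, 0.0258 to 0.384), and at 0.745-fold in Foxp3-negative cells. Top2a was at 52.0 and 282 CPM (0.184-fold), Ube2c, a ubiquitin-conjugating enzyme of mitosis, at 31.2 and 293 CPM (0.107-fold), and Hmgb2, a chromatin protein, at 385 and 1258 CPM (0.306-fold). With other-lineage droplets kept, the Hmgb2 ratio was 1.10 (0.971 to 1.24). Myc and Cd83 had 0 UMIs in motolimod members, against 94.9 and 87.0 CPM in control members. Penk was at 83.2 and 749 CPM (0.111-fold), and with other-lineage droplets kept the ratio was 1.15 (0.952 to 1.37). The 14 motolimod members hold 96162 UMIs in all, so a gene with 3 UMIs there stands at 31.2 CPM.

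The 8 genes with the highest ratios of motolimod over control rested on few cells. They were Cxcl3, Pf4, Cxcl2, Xcl1, Thbs1, Ccl4, Slpi and Arg1, which encode mostly chemokines and products of myeloid cells. Single cells held 97.4% of the 39 Cxcl3 UMIs, 95.5% of the Pf4 UMIs, 94.4% of the 124 Cxcl2 UMIs, 96.3% of the 109 Ccl4 UMIs, 54.5% of the 11 Slpi UMIs, and all of the Xcl1, Thbs1 and Arg1 UMIs. Cxcl2 was at 0.305-fold, rather than 10.6-fold, in members with at least 2 Foxp3 UMIs. Lyz2, a macrophage and neutrophil gene among the 8 lowest, was at 31.2 and 198 CPM (0.158-fold), and at 1.16-fold with other-lineage droplets kept and 1.77-fold when cells with over 0.5% of UMIs from other-lineage markers were left out.

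The remaining lists were compared between motolimod and control members in the same way. Of 12 interferon genes compared 0 were called (median log2 ratio 0.21), while in Foxp3-negative cells 3 of 10 were higher (median 0.87). Ifi27l2a stood at 5636 and 4856 CPM in motolimod and control members. Of 13 suppressive effector genes 2 were higher, Il10 (125 and 55.4 CPM, 2.25-fold, 1.01 to 4.80) and Cd274, and 1 lower, Penk. Of 12 homing genes 2 were higher and 1 lower. Ccr2 was 2.42-fold (1.54 to 3.75) higher in motolimod members and 2.64-fold higher in motolimod Foxp3-negative cells. Of 5 naive and central memory genes 3 were higher. Of 7 effector genes compared 4 were higher and 1 lower, with Xcl1 and Ccl4 each resting on 1 cell. Of 15 metabolism genes 0 were called, and of 14 heat shock genes 2 were lower.

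**Figure D5:**
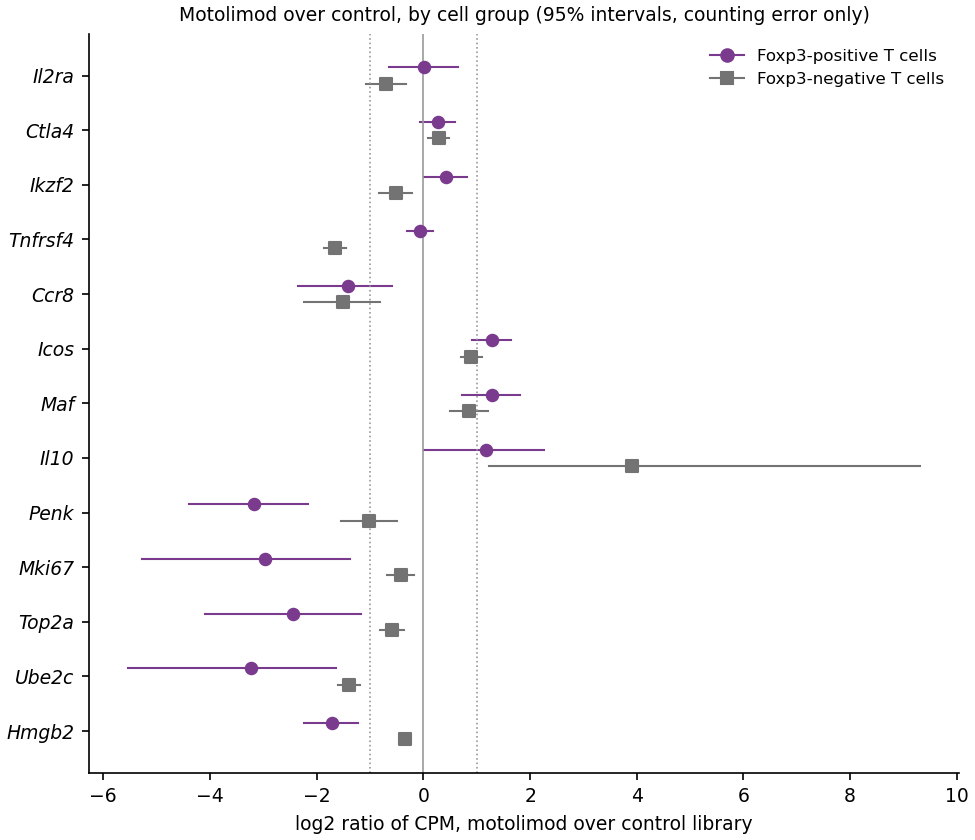
Log2 ratios of summed CPM, motolimod over control library, in members (circles) and in Foxp3-negative Cd3e-positive cells (squares), with 95% intervals for counting error and dotted lines at 2-fold. Il2ra, Ctla4, Ikzf2 and Tnfrsf4 lie within 2-fold in members, and Penk, Mki67, Top2a, Ube2c and Hmgb2 lie below it.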

How the data were processed

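The deposited matrices hold unnormalized UMI counts, 1 matrix for each library, on the mm10 build. Per the file headers they come from Cell Ranger 7.1.0, whereas the submitters' processing notes name version 5.0.1. No doublet caller was run, and the other-lineage genes of the rule took its place. The depth was 127609378 UMIs in the control and 62057685 in the motolimod library. Counts of a group of cells were summed, divided by the group's total and given as CPM. Ratios have exact conditional binomial, CPM exact Poisson and shares exact Clopper-Pearson 95% intervals. A group at 0 UMIs was set to a floor of 3 counts over the group for a bound. The 9 genes of the rule were left out of the comparisons. The members and the 22 gene lists (321 genes) were chosen with earlier results of these data known. Genes named are the 3 markers, up to 4 per list with the largest absolute log2 ratio in the control library, the 15 highest and 10 lowest control genes by the interval bound nearest 1, the 8 highest and 8 lowest for motolimod over control, and Tlr7, Tlr8, Pf4 and Cxcr3. Alternatives were other cell filters, thinning to 1000 UMIs, at least 2 Foxp3 UMIs, mixed droplets left out, a mean over cells, median-of-ratios scaling, no CPM minimum, cycling cells left out and other comparison cells. The ratio step was tested on simulated data. Python 3.11.15, numpy 2.4.6, scipy 1.17.1, pandas 2.3.3 and matplotlib 3.10.9 were used. Some genes that the naming rule or the lists hold are not reported here.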

Additional observations from a re-analysis of the deposited data

Results flagged for a closer look

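For 6 genes the ratio of Foxp3-positive over Foxp3-negative T cells was called higher in one library and lower in the other. They are 4 of the 220 genes called higher and 2 of the 134 called lower in the control library. Genes on opposite sides of 1 without a call in both libraries are not among them. Each ratio or bound given was at least 2-fold from 1 in both libraries, except for Trbv15 in the motolimod library. The difference between the libraries was not tested, since each group has 1 library. Ifitm3, an interferon-induced membrane protein gene, was at 3.33 in the control library, over 12 members, and at 0.478 in the motolimod library, over 6 members. Elf2, a transcription factor gene, was at 2.01 in the control library, with 25 UMIs in 17 members, and at 0.155 in the motolimod library, with 1 UMI. Lyz2, a myeloid lysozyme gene, was at 4.01, with 53.3% of 75 UMIs in 1 cell, and at 0.284, with 3 UMIs. Cxcl3, a neutrophil-attracting chemokine gene, had 0 UMIs in control members, an upper bound of 0.124 at the floor of 3 counts, and was at 3.30 in the motolimod library, with 97.4% of 39 UMIs in 1 cell. The T cell receptor variable gene Trbv15 was at 8.80 in the control library from 1 cell, and had 0 UMIs in motolimod members, with a bound of 0.587 at that floor, which does not reach 2-fold. The immunoglobulin gene Igkc was at 0.199 in the control library, with 4 UMIs in 1 cell, and at 16.1 in the motolimod library, with 12 UMIs in 3 cells.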

How the results depend on the processing

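The cause of each change below was not tested, other than that thinning and smaller comparison groups leave fewer counts. Thinning to 1000 UMIs gave shares of Foxp3-positive cells of 3.40% and 1.92%. In the thinned cells 134 of 3132 genes compared were higher in the control library. Of 3587 in the motolimod library 132 were higher and 36 lower. For motolimod over control in members 33 of 901 genes compared were higher and 20 lower. Thinning moved Cst3 to 1.13 in the motolimod library. With no CPM minimum, 484 of 9189 genes were higher and 347 lower in the control library. The main comparison called 220 and 134 of 3190. With cells holding Mki67 or Top2a left out, 356 of 3167 genes were higher in the control library, and Ccr7 was at 0.664 in the motolimod library. Of 2465 genes then compared between motolimod and control members, 83 were higher with motolimod and 77 lower. With at least 2 Foxp3 UMIs, Apoe was at 0.0873 in the control library and Cxcl2 at 0.305 for motolimod over control. With mixed droplets left out, Apoe was at 0.583 and Lyz2 at 0.837 in the control library, Cst3 at 1.40, H2-Ab1 at 3.85 and Il1b at 1.04 in the motolimod library, and Lyz2 at 1.77 for motolimod over control. Against Cd4 cells without Cd8 (5 and 24 cells), 89 of 3474 genes were higher in the control and 193 of 3492 in the motolimod library. In the control library Ass1 was then at 0.788, Ccr8 0.945, Cd4 0.405, Cst3 1.04, Cxcr3 0.348, Cxcr6 1.22, Ifi27l2a 0.796, Ikzf2 0.913, Isg20 0.544, Maf 0.497, Oas1a 0.917 and Slc16a3 0.637. For motolimod members Cd4 was at 0.467, Cst3 2.24, Cxcr3 0.690, H2-Ab1 3.04, Il1b 3.54, Lyz2 4.56, Oas1a 0.934, Prf1 7.59, S100a9 1.52, Satb1 0.976 and Tyrobp 5.57.

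Alternatives chosen after seeing the data were run too. Without the deepest member, Ccr7 was at 0.907 in the motolimod library. With other-lineage genes allowed, 39 of 2953 genes were higher and 42 lower in the control library. In the motolimod library 83 of 3191 were higher and 91 lower, and for motolimod over control 63 of 3174 were higher and 49 lower. Pf4 was then at 1.17 in the control library, and Fosb at 1.24, Gzma 1.83, Hspa1a 1.23, Il1b 1.02, Lyz2 1.21 and Tyrobp 1.10 in the motolimod library. For motolimod over control, Hmgb2 was at 1.10, Lyz2 1.16 and Penk 1.15. Against cells without Cd8 or Trdc, 357 of 3502 genes were higher and 353 lower in the control library. Ccr2 was then at 0.802, Cd14 0.832, Icos 0.788, Maf 0.750, Prf1 3.55 and Slc2a3 1.08. In motolimod cells Ccr7 was at 0.879, Cd4 0.901, Cxcr3 0.879, H2-Ab1 1.67 and Prf1 1.83. Against Cd8 cells, Cst3 was at 1.09 in the motolimod library. Over all alternatives, 794 ratios of named genes stayed within the 95% interval of the main value in the control library, 327 moved outside it and 22 past 2-fold changed side. For the motolimod library these counts were 873, 198 and 29, and for motolimod over control 105, 33 and 5.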
